A study of Homo sapiens with 8 samples.

Results

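Smooth muscle and myofibroblast contractile genes were followed as a set of 10, namely ACTA2, TAGLN, CNN1, TPM2, LMOD1, SMTN, MYH11, MYL9, MYLK and DES, chosen by gene symbol from the 60558 genes in the files. All 10 were listed in every library, and 9 passed the filter of at least 1 FPKM (fragments per kilobase of transcript, relative to all mapped fragments) in at least 2 of the 8 libraries. Of these 9, 8 were above 1 FPKM in all 8 libraries and DES was above it in 5. MYH11 was listed at 0 throughout and entered no test.

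The cells were 2D hIECs, cultures labelled as human intestinal epithelial cells and grown from H9, an embryonic stem cell line. There were 4 groups of 2 libraries, and all of them came from H9 and carried a treatment label of 10 days. The groups were untreated cells (normal hIECs), cells given PM10 alone, cells given cytokines alone (inflamed hIECs) and cells given both treatments. Per the study's methods, inflamed hIECs received IFNγ and TNFα at 50 ng/ml each for 10 days, and PM10, airborne particulate matter, was given at 100 μg/ml for 7 days. The labels do not say whether the 2 libraries of a group came from separate cultures, so the p-values measure the spread between these libraries, which may be technical, and a single cell line was used.

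Smooth muscle shortens when calcium and calmodulin switch on myosin light chain kinase, which phosphorylates the regulatory light chain of myosin and lets the motor pull on filaments of alpha smooth muscle actin. Tropomyosin, calponin, transgelin and leiomodin line, stabilise or nucleate those filaments. Myofibroblasts, the activated fibroblasts of wounds and fibrosis, take up part of this set, above all ACTA2 and TAGLN, without becoming mature smooth muscle, for which MYH11 is the most restricted marker. Many of these genes are switched on by serum response factor (SRF) and its coactivators, myocardin and the myocardin-related factors, through a short promoter site called the CArG box. In the gut wall these cells lie beneath and around the epithelium, and a pure epithelial layer would be expected to hold little of the set.

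Promoters that carry such a site are shown because SRF is known to act through it, although not every gene of the set carries one in the window searched. The windows are the 250 bases before a transcription start in RefSeq (GRCh38.p14), cut where an annotated exon begins, read 5′ to 3′ on the strand of the gene, with CArG boxes, complete or with 1 departing base, in capitals. ACTA2 is chr10:88952774-88953023 on the minus strand, LMOD1 is chr1:201946549-201946798 on the minus strand, and SMTN is chr22:31084746-31084995 on the plus strand. MYLK is a stretch of 30 bases within an annotated exon, chr3:123620623-123620652 on the minus strand. It belongs to an internal start, far from the 5′ end of the gene at chr3:123884332, and no other MYLK start was listed. Which MYLK transcripts gave the FPKM of the gene was not tested. ACTG2, enteric smooth muscle actin, is not in the set but is the closest smooth muscle relative of ACTA2. It is shown because its level fell with cytokines, where that of ACTA2 rose. It lies at chr2:73892758-73892944 on the plus strand.
ACTA2: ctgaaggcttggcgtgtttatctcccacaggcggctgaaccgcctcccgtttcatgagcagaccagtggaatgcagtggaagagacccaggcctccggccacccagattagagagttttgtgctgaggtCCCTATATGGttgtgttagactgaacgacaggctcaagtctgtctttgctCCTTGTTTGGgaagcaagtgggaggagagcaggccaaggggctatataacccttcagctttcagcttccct
LMOD1: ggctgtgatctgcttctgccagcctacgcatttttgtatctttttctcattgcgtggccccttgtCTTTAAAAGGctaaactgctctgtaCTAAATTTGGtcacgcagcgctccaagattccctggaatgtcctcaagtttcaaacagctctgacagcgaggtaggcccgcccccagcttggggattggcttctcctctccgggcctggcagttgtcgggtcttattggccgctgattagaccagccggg
SMTN: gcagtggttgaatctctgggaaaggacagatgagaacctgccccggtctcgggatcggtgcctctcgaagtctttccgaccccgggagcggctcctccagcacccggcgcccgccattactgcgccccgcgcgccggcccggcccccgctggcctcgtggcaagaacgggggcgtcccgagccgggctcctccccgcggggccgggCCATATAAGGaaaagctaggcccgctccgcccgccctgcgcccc
MYLK: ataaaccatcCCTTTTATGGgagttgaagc
ACTG2: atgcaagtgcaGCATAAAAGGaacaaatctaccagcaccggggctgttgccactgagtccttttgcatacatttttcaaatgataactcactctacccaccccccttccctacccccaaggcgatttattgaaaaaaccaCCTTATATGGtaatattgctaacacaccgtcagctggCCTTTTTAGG

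The RefSeq promoter table held 11 starts for 6 of the 10 genes (ACTA2, CNN1, LMOD1, MYLK, SMTN and TPM2). TAGLN, DES, MYH11 and MYL9 were not in it. A complete CArG box, which reads alike on both strands, stood 94 bases before the internal MYLK start and 44 bases before a SMTN start. Another 2 stood before ACTG2, at 110 and 73 bases. ACTA2 held 2 boxes with 1 departing base, at 121 and 71 bases, and LMOD1 held 2, at 185 and 160 bases. The start of CNN1, both starts of TPM2, the other start of ACTA2 and 2 starts of SMTN held none, and another SMTN start held 1 with a departing base. In all, 2 of the 11 starts held a complete box and 5 held at least 1 box with up to 1 departing base. Over all 35116 starts of the table, 1.16% held a complete box, 16.8% held at least 1 box with up to 1 departing base, and 2.89% held 2 or more of these. The matches are descriptions of the letters in these windows.

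Levels per length differed widely within the set. TAGLN ranked 29 to 92 among all genes by FPKM, depending on the library, ACTA2 45 to 116, TPM2 65 to 159 and MYL9 88 to 263. CNN1 ranked 705 to 999, and MYLK, LMOD1 and SMTN ranked between 2463 and 7542. DES ranked 11440 to 15454, while 16547 to 18926 genes were above 0 in a library. Together the 10 genes took 0.522% to 0.564% of the FPKM sum in normal hIECs, 0.46% to 0.472% with PM10, 0.863% to 0.877% in inflamed hIECs and 0.942% to 0.951% with both treatments. ACTA2, TAGLN, TPM2 and MYL9 made up 95.8% to 97.0% of that in every library.

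The labelled cell type was checked against its markers. Of 16 epithelial markers, 8 were listed at 0 in all libraries, among them VIL1, CDX2, CLDN7 and KRT20, EPCAM stayed under 1 FPKM, and CDH1, which encodes E-cadherin, was above 0 in a single library at 0.221 FPKM. KRT8, KRT18 and KRT19 were the 3 that reached 1 FPKM. All 16 mesenchymal markers were expressed, with a summed level of 5270 to 6280 FPKM. The data thus go against a purely epithelial label, and the cultures are called hIECs here only as the study calls them. Of 8 pericyte markers, all but MCAM were found by symbol. The 7 found summed to 47.5 to 53.4 FPKM in normal and 18.3 to 18.4 FPKM in inflamed hIECs, and 1 of them was listed at 0. Of 9 endothelial markers, 4 (PECAM1, CDH5, KDR and VWF) were listed at 0, and the list summed to 29.1 to 34.4 FPKM in normal hIECs, 19.8 to 21.1 FPKM with PM10, 9.27 to 9.7 FPKM in inflamed hIECs and 5.43 to 6.16 FPKM with both treatments. Of 24 striated muscle markers, 8 were listed at 0, including TTN, NEB and MYH7, and 9 reached 1 FPKM, with sums of 22.5 to 31.0 FPKM. Interstitial cell of Cajal markers summed to 14.5 to 25.8 FPKM. In these bulk libraries, fewer cells of a type and less RNA per cell cannot be told apart.

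**Figure D1:**
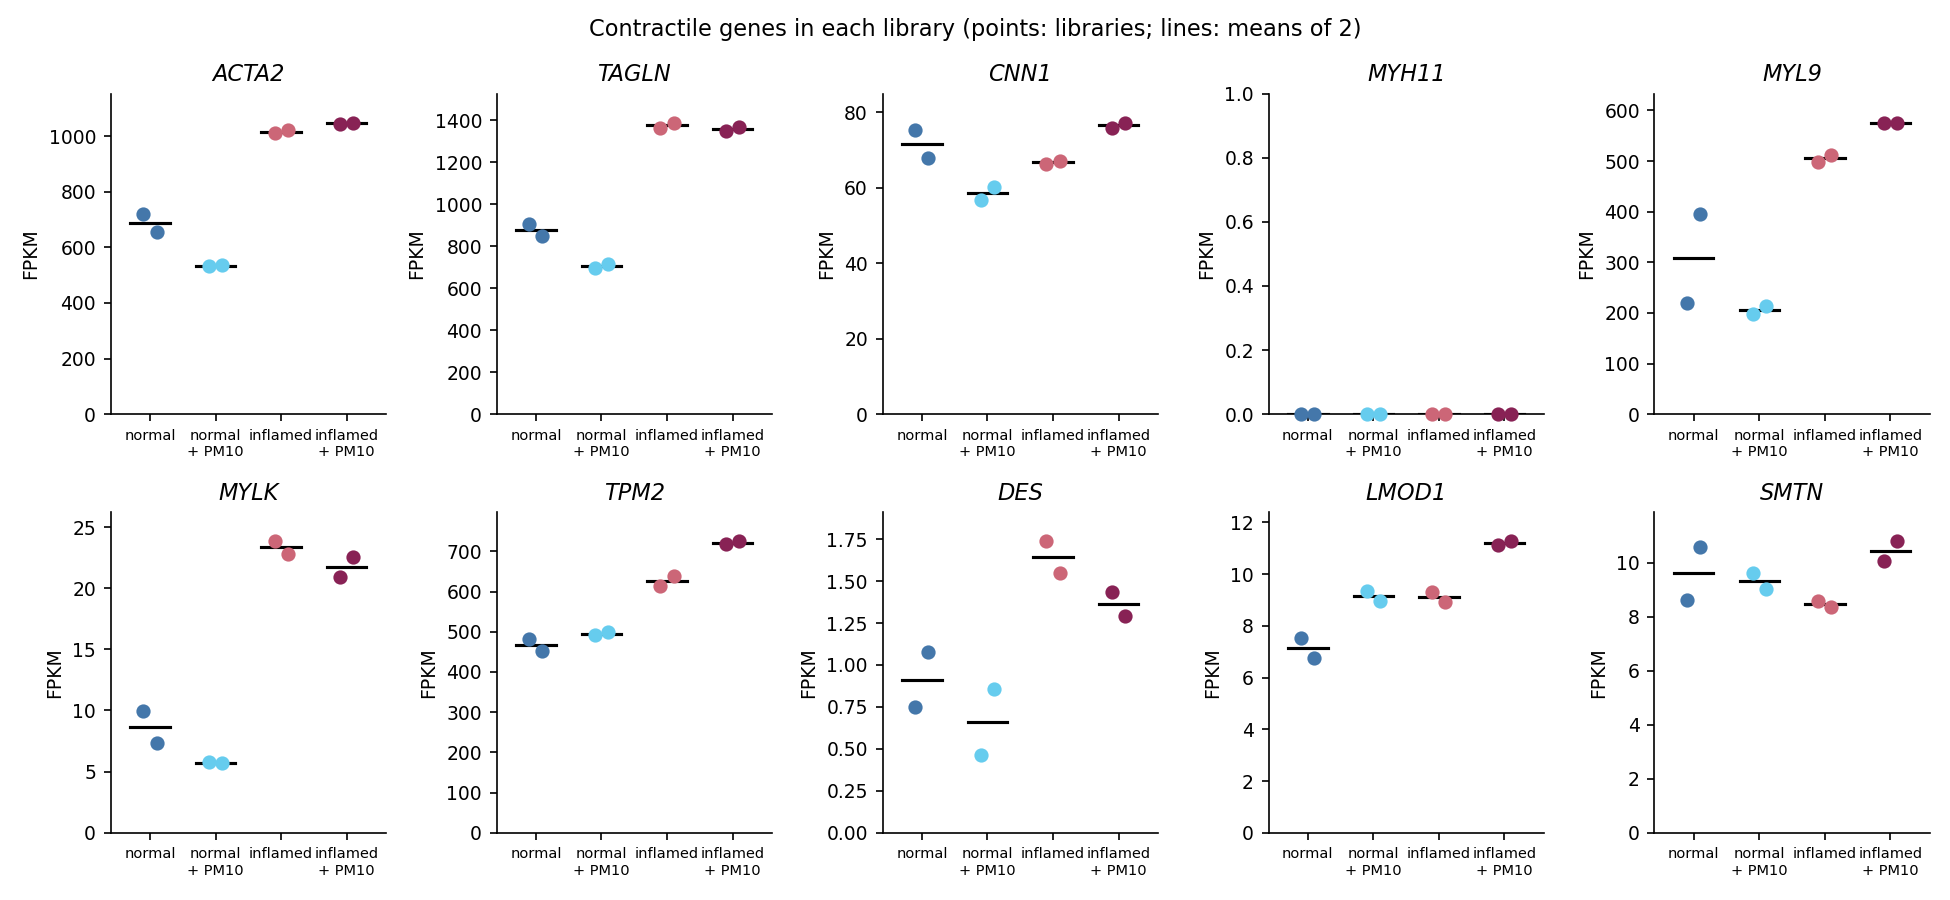
FPKM (vertical axes, each from 0) of the 10 contractile genes in the 4 groups, with 1 point per library and a line at the mean of the 2 libraries. ACTA2, TAGLN, MYL9, MYLK, TPM2 and DES sit higher in all 4 cytokine-treated libraries than in the 4 others. The share of all genes separated in this way was not counted, so it is only a description. The 2 normal libraries of MYL9 are far apart (221 and 395 FPKM), and MYH11 is at 0.

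Cytokine treatment raised most of the set. In inflamed against normal hIECs, 7 of the 9 tested genes rose and none fell, and between the 2 groups given PM10, 8 rose and none fell (limma, adjusted p under 0.05). Over all 14206 genes tested, 25.9% were higher and 30.3% lower in the first comparison, and 25.8% were higher and 39.6% lower in the second. Both counts include DES, which passed the filter mainly through cytokine-treated libraries. With at least 1 FPKM required in all libraries, which removes DES, 6 and 7 of 8 genes rose. The median difference over the 9 genes, as log2(FPKM + 1), was 0.47 against -0.03 over all genes in the first and 0.54 against -0.11 in the second. These 2 comparisons share no library. MYLK, MYL9, TAGLN and ACTA2 moved most, and SMTN passed the test in neither. None of the 9 was lower at an unadjusted p under 0.05 in either.

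ACTA2, which encodes alpha smooth muscle actin, the actin of the contractile filament (chr10:88935074-88991339), was at 719 and 656 FPKM in normal hIECs and 532 and 537 FPKM with PM10. It was at 1011 and 1020 FPKM in inflamed hIECs and 1042 and 1048 FPKM with both treatments. Every cytokine-treated library stood above every other library. For this gene and those below, such a separation is only a description, since its share over all genes was not counted. On the log2(FPKM + 1) scale the difference was 0.56 (SE 0.05, adjusted p = 8.91e-05 by limma) without PM10 and 0.97 (SE 0.05, adjusted p = 4.34e-06) with it, or 1.48-fold and 1.95-fold.

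TAGLN, transgelin, an actin-binding protein of smooth muscle and an early marker of its differentiation (chr11:117199370-117207464), had the highest level of the set. It read 904 and 848 FPKM in normal hIECs, 698 and 714 FPKM with PM10, 1363 and 1389 FPKM in inflamed hIECs and 1350 and 1366 FPKM with both treatments. The cytokine-treated libraries again lay above all others, and the 2 cytokine-treated groups overlapped. The differences were 0.65 (SE 0.05, adjusted p = 2.70e-05) and 0.94 (SE 0.05, adjusted p = 3.11e-06).

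TPM2, beta-tropomyosin, which lies along the actin filament (chr9:35681992-35690056), was at 483 and 451 FPKM in normal hIECs and 491 and 500 FPKM with PM10. It reached 613 and 640 FPKM in inflamed hIECs and 717 and 725 FPKM with both treatments. The groups stood in that order without overlap, although the lowest pair, normal hIECs without and with PM10, did not differ by the test (adjusted p = 0.292). The cytokine differences were 0.42 (SE 0.05, adjusted p = 0.000297) and 0.54 (SE 0.05, adjusted p = 6.23e-05).

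MYLK, the kinase that starts contraction (chr3:123610049-123884332), moved most on the log2 scale. It was at 9.94 and 7.35 FPKM in normal hIECs, 5.76 and 5.67 FPKM with PM10, 23.8 and 22.8 FPKM in inflamed hIECs and 20.9 and 22.5 FPKM with both treatments. No cytokine-treated library came near an untreated one. The differences of 1.35 (SE 0.12, adjusted p = 6.30e-05) and 1.76 (SE 0.12, adjusted p = 1.16e-05) were 2.55-fold and 3.38-fold.

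MYL9, the regulatory light chain that this kinase phosphorylates (chr20:36541497-36551447), was at 221 and 395 FPKM in normal hIECs, the widest replicate gap of the set. Only 117 of 14206 genes, or 0.824%, differed more between the 2 normal libraries. It was at 199 and 214 FPKM with PM10, 498 and 512 FPKM in inflamed hIECs and 576 and 574 FPKM with both treatments. Its cytokine-treated libraries lay above all others. The differences were 0.77 (SE 0.22, adjusted p = 0.0206) and 1.47 (SE 0.22, adjusted p = 0.000816). The first was 0.35 without normal replicate 1 and 1.19 without normal replicate 2, and it missed the threshold without inflamed replicate 1 (adjusted p = 0.0700) or 2 (adjusted p = 0.0797) and when only the 2 groups were fitted (adjusted p = 0.0591).

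MYH11, the heavy chain of the smooth muscle myosin motor (chr16:15703135-15857028), was listed at 0 in all 8 libraries, while the light chain and its kinase were above 0. NDE1, which overlaps 1063 exon bases of MYH11 on the opposite strand, was at 7.87 to 11.3 FPKM, and AF001548.2, also within the locus, at 0.394 to 1.79 FPKM, so reads of MYH11 and of these genes could not be told apart over the shared bases. The floor behind this 0 is the smallest value above 0 in each library, 0.164 to 0.228 FPKM. The non-muscle heavy chain MYH9 was at 77.5 to 87.1 FPKM in the 4 libraries without cytokines and 135 to 166 FPKM in the 4 with them. MYH10, another non-muscle heavy chain, was at 47.8 to 52.9 FPKM and 37.6 to 39.1 FPKM. MYH9 rose (0.76 and 0.93) and MYH10 fell (-0.36 and -0.45) in both cytokine comparisons, so that MYH9 went from 60.6% of the summed MYH9, MYH10, MYH11 and MYH14 level in normal hIECs to 77.8% in inflamed hIECs.

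CNN1, calponin, an actin-binding protein of differentiated smooth muscle that slows the myosin motor (chr19:11538767-11550323), did not follow ACTA2 in every comparison. It was at 75.3 and 67.8 FPKM in normal hIECs, 56.9 and 60.3 FPKM with PM10, 66.4 and 67.2 FPKM in inflamed hIECs and 75.9 and 77.3 FPKM with both treatments. The inflamed libraries lay just below the normal ones, and the inflamed libraries with PM10 lay above all others. Without PM10 the cytokine difference was -0.10 (95% interval -0.24 to 0.05, adjusted p = 0.211), and without normal replicate 2 it was -0.17 and passed the test as a decrease (adjusted p = 0.0271). With PM10 it was 0.38 (SE 0.06, adjusted p = 0.00103).

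LMOD1, leiomodin, which nucleates actin filaments in smooth muscle (chr1:201896456-201946548), was at 7.53 and 6.77 FPKM in normal hIECs, 9.35 and 8.97 FPKM with PM10, 9.30 and 8.93 FPKM in inflamed hIECs and 11.1 and 11.3 FPKM with both treatments. Normal hIECs were lowest and the doubly treated cells highest, with the 2 singly treated groups overlapping in between. The cytokine differences were 0.31 (SE 0.07, adjusted p = 0.00504) and 0.26 (SE 0.07, adjusted p = 0.00896), and the second missed the threshold without replicate 2 of normal hIECs with PM10 (adjusted p = 0.0560).

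SMTN, smoothelin, an actin-associated protein of contractile smooth muscle (chr22:31064105-31104757), was at 8.63 and 10.6 FPKM in normal hIECs, 9.63 and 9.03 FPKM with PM10, 8.59 and 8.36 FPKM in inflamed hIECs and 10.1 and 10.8 FPKM with both treatments. The groups lay close together, with the normal libraries spanning those with PM10. The cytokine differences were -0.16 (95% interval -0.37 to 0.06, adjusted p = 0.186) and 0.15 (95% interval -0.07 to 0.36, adjusted p = 0.201). Without normal replicate 1 the first was -0.29 and passed the test as a decrease (adjusted p = 0.0162).

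DES, desmin, the intermediate filament of muscle (chr2:219418377-219426735), had the lowest level of the tested contractile genes. It was at 0.749 and 1.08 FPKM in normal hIECs, 0.462 and 0.856 FPKM with PM10, 1.74 and 1.55 FPKM in inflamed hIECs and 1.43 and 1.29 FPKM with both treatments. The cytokine-treated libraries were highest, and 4 of the 5 libraries through which DES passed the filter were cytokine-treated, which makes a difference more likely among genes that pass. The differences were 0.47 (SE 0.14, adjusted p = 0.0238) and 0.52 (SE 0.14, adjusted p = 0.0134). The first missed the threshold without normal replicate 1 (0.35, adjusted p = 0.118), inflamed replicate 1 (0.42, adjusted p = 0.108) or inflamed replicate 2 (0.52, adjusted p = 0.0567). The second missed it without replicate 1 of normal hIECs with PM10 (0.35, adjusted p = 0.0764) or of inflamed hIECs with PM10 (0.48, adjusted p = 0.0668).

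**Figure D2:**
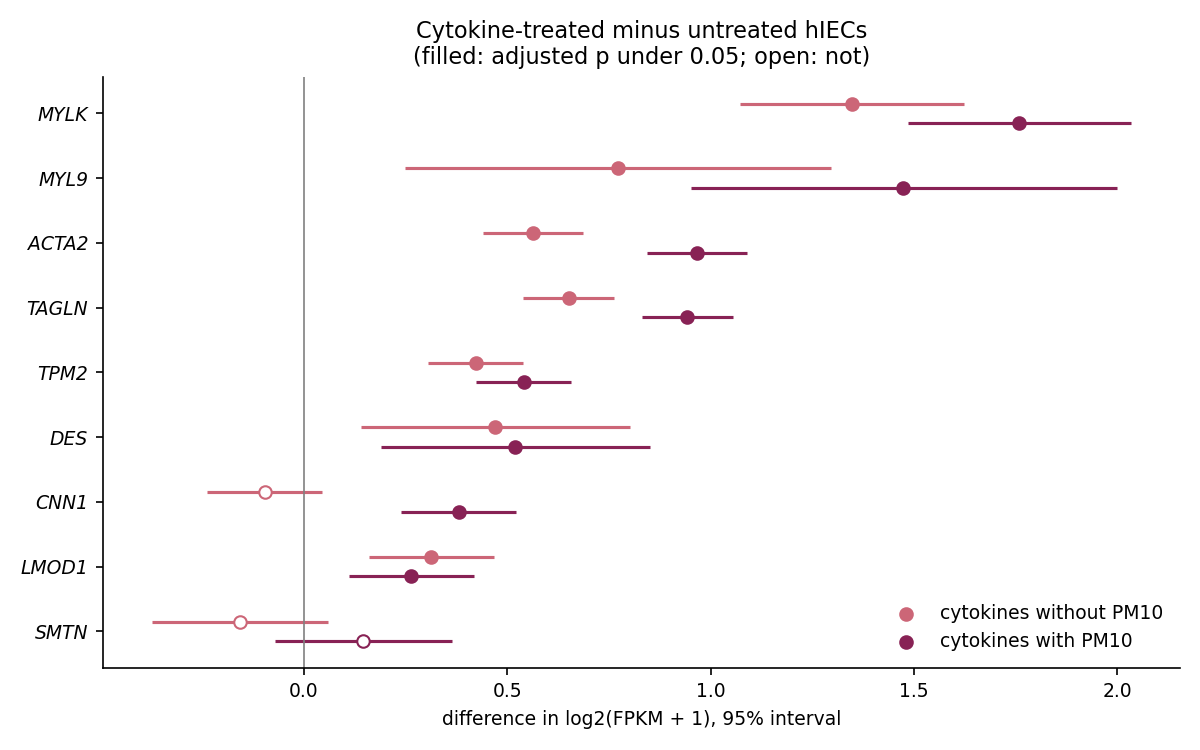
Difference in log2(FPKM + 1) between cytokine-treated and untreated hIECs (horizontal axis, with 95% intervals) for the 9 tested contractile genes, without PM10 and with it, where filled points passed the limma test at an adjusted p under 0.05. MYLK is farthest right at 1.35 and 1.76, and SMTN crosses 0 in both comparisons.

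Proliferation markers moved with the set. All 10 of them rose in both cytokine comparisons, and their summed level was 142 to 151 FPKM in normal hIECs, 109 to 118 FPKM with PM10, 261 to 262 FPKM in inflamed hIECs and 238 to 240 FPKM with both treatments. Mesenchymal markers split: of 16 tested, 7 rose and 5 fell without PM10, and 7 rose and 8 fell with it. COL3A1 (-0.53 and -1.13) and PDGFRA (-0.69 and -1.02) fell, while LUM (1.31 and 1.62) and FN1 (0.58 and 1.06) rose. Over all genes, 25.9% were higher and 30.3% lower without PM10, and 25.8% and 39.6% with it. Several markers of other cell types fell with cytokines. Epithelial markers summed to 642 to 652 FPKM in normal and 347 to 352 FPKM in inflamed hIECs (KRT18 fell by 0.99 and KRT8 by 0.82), neuronal markers to 202 to 212 FPKM and 117 to 118 FPKM (4 of 5 tested fell in both comparisons and 1 rose), and the endothelial marker EMCN fell by 1.90 and 2.24. Of 7 tested striated muscle markers, 2 rose and 2 fell without PM10, and 4 rose and 1 fell with it. The striated counts without PM10 are near the shares over all genes and are not a result about that list. The part of these other genes in the rise of the contractile genes was not tested. Genes that share exon bases with a contractile gene also have to be read beside it, since the libraries did not keep strand, per the labels. FAS, on the opposite strand over 387 exon bases of ACTA2, was at 1.19 to 1.81 FPKM without cytokines and 7.56 to 11.1 FPKM with them, and ACTA2-AS1, over 1638 bases, stayed between 0.466 and 3.63 FPKM. PCSK7, which shares exon bases with TAGLN on the opposite strand, was at 19.2 to 32.0 FPKM and 39.2 to 48.4 FPKM. Reads from the shared bases cannot be told apart, and each of these levels was far below that of ACTA2 or TAGLN. CNN1, MYL9 and TPM2 share no exon bases with another gene in GENCODE 44.

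The set moved with PM10 in fewer of its genes. In normal hIECs, 4 of the 9 tested genes (MYLK, ACTA2, TAGLN and CNN1) fell with PM10 and LMOD1 rose, beside 3.72% of all genes that were lower and 5.51% that were higher. In inflamed hIECs none fell and 2, LMOD1 and TPM2, rose, beside 9.02% of all genes lower and 6.22% higher. Over all genes this split of 883 higher and 1282 lower became 1101 and 1402 with median centring, 1136 and 1102 with quantile normalization and 1150 and 1152 after rescaling to nuclear genes, and 2 or 3 of the 9 rose and none fell under each. The median difference over the 9 genes was -0.28 against 0.06 over all genes in normal hIECs, and 0.19 against -0.01 in inflamed hIECs. The normal comparison shares its untreated libraries with the comparison of inflamed against normal hIECs.

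In normal hIECs, the PM10 libraries lay below both untreated libraries for ACTA2, TAGLN, CNN1, MYLK and MYL9, and above them for LMOD1 and TPM2. Such a separation of 2 libraries from 2 has an exact permutation p of 0.333 at best. Its share over all genes was not counted, so it is only a description. ACTA2 fell by 0.36 on the log2 scale (SE 0.05, adjusted p = 0.0101), TAGLN by 0.31 (SE 0.05, adjusted p = 0.0123), CNN1 by 0.28 (SE 0.06, adjusted p = 0.0328) and MYLK by 0.51 (SE 0.12, adjusted p = 0.0407). LMOD1 rose by 0.32 (SE 0.07, adjusted p = 0.0290). The difference of MYL9 was as large as that of MYLK, at -0.51, with an SE of 0.22 (adjusted p = 0.175), and it was -0.93 (adjusted p = 0.00110) without normal replicate 1. TPM2 (0.09, adjusted p = 0.292), DES (-0.21, adjusted p = 0.358) and SMTN (-0.03, adjusted p = 0.843) did not pass.

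These PM10 calls in normal hIECs rested on the spread shared by all 8 libraries. With only the libraries of these 2 groups in the limma fit, none of the 9 passed, although 5 (1 higher, 4 lower) had an unadjusted p under 0.05. Without replicate 1 or 2 of normal hIECs with PM10 none passed either, with adjusted p of 0.0794 and 0.0711 for ACTA2 and 0.0949 and 0.0755 for TAGLN. CNN1 (adjusted p = 0.0667 to 0.171), MYLK (adjusted p = 0.0728 to 0.158) and LMOD1 (adjusted p = 0.0586 to 0.153) each missed the threshold when any 1 library outside the normal group was left out. LMOD1 also missed it without normal replicate 2 (0.25, adjusted p = 0.0769), and the fall of MYLK was 0.31 without normal replicate 1. Without the variance trend CNN1 (adjusted p = 0.0587) and MYLK (adjusted p = 0.0552) missed the threshold, and MYLK did with no filter (adjusted p = 0.0617). Quantile normalization ended the calls of ACTA2 (-0.17, adjusted p = 0.113) and TAGLN (-0.14, adjusted p = 0.119) and added TPM2 (0.31, adjusted p = 0.0267), which made 2 higher and 2 lower. Over all genes the split of 783 higher and 528 lower calls became 563 and 749 with median centring, 628 and 633 with quantile normalization and 1549 and 518 after rescaling to nuclear genes. Of the 10 proliferation markers 7 fell with PM10 in normal hIECs, as did 3 of 7 tested striated muscle markers, and their part in these falls was not tested.

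In inflamed hIECs, PM10 libraries lay above inflamed libraries for CNN1, TPM2, LMOD1, MYL9, ACTA2 and SMTN, and below them for MYLK and DES. Here too the separation is only a description, and its share over all genes was not counted. LMOD1 rose by 0.27 (SE 0.07, adjusted p = 0.0344) and TPM2 by 0.20 (SE 0.05, adjusted p = 0.0352). The others did not pass, among them SMTN (0.27, 95% interval 0.05 to 0.49, adjusted p = 0.0912) and CNN1 (0.19, 95% interval 0.05 to 0.34, adjusted p = 0.0710). The intervals of ACTA2 (-0.08 to 0.16) and TAGLN (-0.13 to 0.09) were narrow around differences of 0.04 and -0.02. Leaving out any 1 of the 6 libraries outside the normal group ended both calls, at an adjusted p of 0.0598 to 0.159 for LMOD1 and 0.0667 to 0.182 for TPM2. TPM2 also missed the threshold with no filter (adjusted p = 0.0513) and without the variance trend (adjusted p = 0.0733). Leaving out normal replicate 1 or 2 takes the most variable group (median SD 0.085 on the log2 scale, against 0.049 to 0.053 in the others) out of the shared spread without entering this difference, and it added CNN1 (adjusted p = 0.0218 and 0.0217), MYL9 (0.0284 and 0.0285) and SMTN (0.0271 and 0.0274).

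The effect of PM10 itself differed between inflamed and normal hIECs for 3 of the 9 genes, all in the upward direction, beside 2.11% of all genes higher and 4.48% lower for this interaction. It was 0.40 for ACTA2 (SE 0.07, adjusted p = 0.0259), 0.48 for CNN1 (SE 0.09, adjusted p = 0.0238) and 0.29 for TAGLN (SE 0.07, adjusted p = 0.0480). All 3 fell with PM10 in normal hIECs and none passed in inflamed hIECs. MYLK (0.41, adjusted p = 0.191), MYL9 (0.70, adjusted p = 0.235) and SMTN (0.30, adjusted p = 0.217) had differences of like size and did not pass, and LMOD1 (-0.05, 95% interval -0.27 to 0.17) had nearly the same PM10 effect in both. Without any 1 of the 6 libraries outside the normal group, none of the 3 passed (3 of the 9 genes still had an unadjusted p under 0.05 by limma), at an adjusted p of 0.0893 to 0.0980 for ACTA2, 0.0597 to 0.0920 for CNN1 and 0.128 to 0.162 for TAGLN. Leaving out normal replicate 1 added MYL9 (1.12, adjusted p = 0.00205) and SMTN (0.44, adjusted p = 0.0442), and leaving out normal replicate 2 added MYLK (0.61, adjusted p = 0.0162). Only CNN1 passed after quantile normalization and without the variance trend (ACTA2, adjusted p = 0.0512), and TAGLN also missed the threshold with a pseudocount of 0.1 (adjusted p = 0.0523), with no filter (adjusted p = 0.0749) and with genes at 1 FPKM in all libraries (adjusted p = 0.0516). Over all genes the split of 300 higher and 637 lower became 453 and 539 with median centring and 425 and 487 with quantile normalization, and 310 and 745 after rescaling to nuclear genes.

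**Figure D3:**
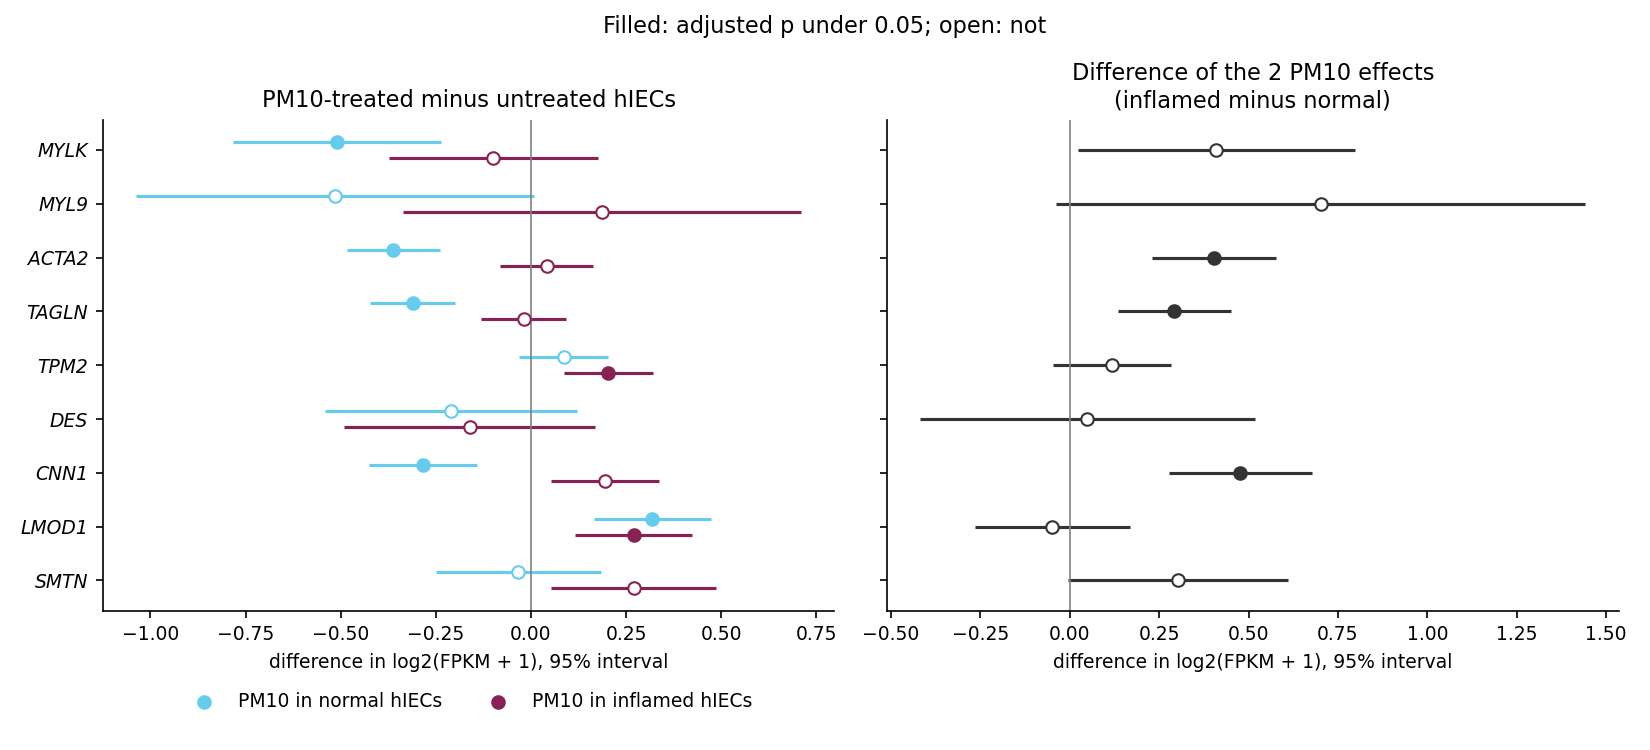
Left, difference in log2(FPKM + 1) between PM10-treated and untreated hIECs (horizontal axis, with 95% intervals) for the 9 tested contractile genes in normal and in inflamed hIECs; right, the difference of these 2 effects. Filled points passed the limma test at an adjusted p under 0.05, and ACTA2, CNN1 and TAGLN are filled on the right at 0.40, 0.48 and 0.29.

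Relatives of the contractile genes moved in either direction. ACTG2, the actin of enteric smooth muscle, was at 130 and 101 FPKM in normal hIECs, 71.1 and 70.6 FPKM with PM10, 39.2 and 40.0 FPKM in inflamed hIECs and 40.8 and 41.2 FPKM with both treatments. It fell in both cytokine comparisons, by 1.51 (SE 0.10, adjusted p = 1.99e-05) and 0.78 (SE 0.10, adjusted p = 0.000425), where ACTA2 rose. In the summed level of 6 actins, ACTA2 held 13.3% in normal hIECs, 10.3% with PM10 and 15.2% with both treatments, and ACTG2 went from 2.23% to 0.586% between normal and inflamed hIECs. ACTB, a cytoplasmic actin, stayed the largest part at 51.8% to 54.5%. The actins are nearly identical in sequence, so reads may be shared between them and their levels are uncertain to that extent.

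Among the tropomyosins, TPM1 rose more than TPM2. TPM1 was at 1317 to 1484 FPKM in the 4 libraries without cytokines and 3004 to 3036 FPKM in the 4 with them, a difference of 1.13 and 1.06. TPM2 therefore fell from 21.0% to 14.6% of the 4 tropomyosins between normal and inflamed hIECs while its own level rose. TAGLN2, a transgelin found in many cell types, rose by 0.91 and 1.44, and TAGLN still held 86.5% to 91.0% of the 3 transgelins in every library. CNN2 rose (0.48 and 0.31) and CNN3 fell (-0.36 and -0.64), so that CNN1 was 10.7% to 15.4% of the 3 calponins. MYL12A (0.46 and 0.78) and MYL12B (0.20 and 0.29), the non-muscle regulatory light chains closest to MYL9, rose as well, and MYL9 went from 30.4% of the 3 in normal hIECs to 36.8% in inflamed hIECs. These 3 light chains are also close in sequence. MYLK3, LMOD2 and LMOD3, relatives restricted to heart and skeletal muscle, were listed at 0 in all libraries. MYLK2, another relative of MYLK, was not: it passed the filter and was called higher in both cytokine comparisons.

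**Figure D4:**
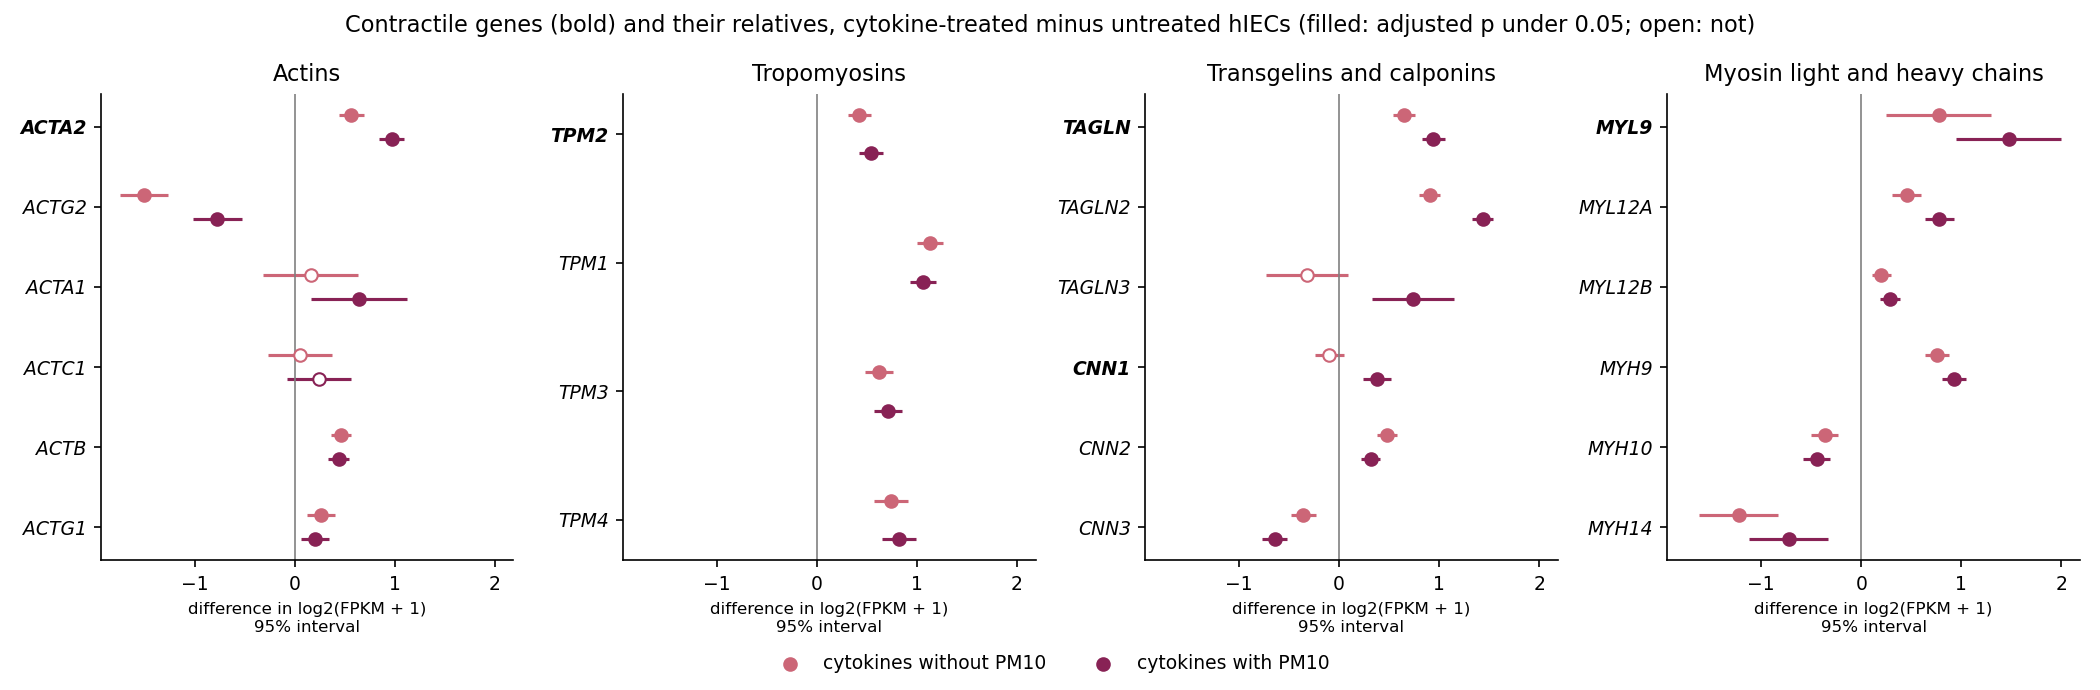
Difference in log2(FPKM + 1) between cytokine-treated and untreated hIECs (horizontal axes, with 95% intervals), without and with PM10, for contractile genes (bold) and their relatives in 4 families, where filled points passed the limma test at an adjusted p under 0.05. ACTG2 lies left of 0 at -1.51 and -0.78, opposite to ACTA2, and TPM1 lies right of TPM2.

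The wider contractile machinery was described with 7 lists of other genes. Their counts stand beside 25.9% of all genes higher and 30.3% lower without PM10, and 25.8% and 39.6% with it. Among 10 tested myosins and light chains, 7 rose and 3 fell in both cytokine comparisons (median 0.43 and 0.68), with the membrane-linked motor MYO1C up by 0.92 and 1.02, while MYH14 fell (-1.22 and -0.73). Among 11 tested actins and tropomyosins, 7 and 8 rose and 2 fell in each, the 2 being ACTG2 and TMOD1 (-0.78 and -1.28), which caps the slow end of actin filaments. Among 9 tested calponin and transgelin relatives, 4 and 6 rose and 2 fell. CALD1, caldesmon, an actin-binding brake on the myosin motor, rose (0.70 and 1.32), and HSPB6, a small heat shock protein of smooth muscle, fell (-1.57 and -0.68). Among 19 tested genes of actin crosslinking and adhesion, 13 and 15 rose and 1 and 3 fell. SVIL, supervillin, which ties myosin and actin to the membrane, was at 7.83 and 8.48 FPKM in normal and 34.2 and 35.4 FPKM in inflamed hIECs, and rose by 1.97.

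PPP1R14A, the smooth muscle inhibitor of the phosphatase that reverses the action of MYLK, was at 20.4 and 16.9 FPKM in normal hIECs and 4.81 and 5.11 FPKM in inflamed hIECs, and fell by 1.72 and, with PM10, by 1.09. GUCY1A1, a subunit of the nitric oxide receptor whose signal relaxes smooth muscle, rose by 0.86 without PM10 and fell by 0.44 with PM10 in inflamed hIECs.

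SRF, which encodes the factor that binds the CArG box, rose from 9.55 and 9.82 FPKM in normal hIECs to 17.4 and 17.1 FPKM in inflamed hIECs, a difference of 0.77 (SE 0.06, adjusted p = 2.40e-05). TEAD1, a partner factor of YAP that also acts on smooth muscle genes, rose by 1.02 in both cytokine comparisons. FHL1, a muscle LIM protein, fell (-1.35 and -1.51), as did GATA6 (-0.83 and -1.45). Over the 18 tested genes of the list, 7 rose and 3 fell without PM10, and 5 rose and 7 fell with it, with medians of 0.03 and -0.11. The shares with PM10 are close to the 25.8% higher and 39.6% lower over all genes, so they are not a result about the list. MYOCD, which encodes myocardin, the strongest coactivator of SRF, was at 0 in 5 libraries and at most 0.284 FPKM in the others, MRTFA was at 15.4 to 21.3 FPKM and MRTFB at 1.70 to 2.44 FPKM. These 3 were named after their values were seen.

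The TGF-beta pathway, which drives myofibroblast differentiation in many tissues, held calls in both directions. Among 21 tested genes, 9 rose and 7 fell without PM10, and 9 rose and 9 fell with it (median 0.03 and 0.01), beside 25.9% higher and 30.3% lower, and 25.8% and 39.6%, over all genes. The receptor TGFBR2 rose by 1.88 without PM10 and by 0.58 with PM10 in inflamed hIECs, LTBP2 rose by 2.08 and 2.43, and the ligand TGFB3 fell by 1.68 and 2.36. Among 14 tested target genes of YAP and SRF, 11 and 12 rose and 1 fell in each cytokine comparison (median 0.58 and 0.74), with CCN1 up by 1.16 and ANKRD1, a stress-induced nuclear protein of muscle, at 120 and 118 FPKM with PM10 alone and 549 and 550 FPKM with both treatments. F3, tissue factor, was the 1 that fell (-0.90 and -1.23).

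Fewer genes of the same lists passed with PM10, as did fewer of all genes (5.51% higher and 3.72% lower in normal hIECs, 6.22% and 9.02% in inflamed hIECs), and small lists near these shares show nothing of their own. In normal hIECs, 3 YAP and SRF targets rose and 3 fell, 1 and 2 of the TGF-beta genes did, and 3 and 2 of SRF and its cofactors. Likewise 1 actin or tropomyosin rose and 2 fell, 1 myosin rose, 2 calponin and transgelin relatives fell, and 2 crosslinking genes rose. In inflamed hIECs, 6 crosslinking genes rose and none fell, 4 calponin and transgelin relatives rose and 2 fell, 3 myosins rose, 2 actins or tropomyosins rose, 6 TGF-beta genes rose and 3 fell, and 4 YAP and SRF targets rose and 1 fell. Of SRF and its cofactors 1 rose and 3 fell. CALD1 rose by 0.55 there, from 175 and 174 FPKM to 258 and 253 FPKM, beside the rise of TPM2 and LMOD1.

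**Figure D5:**
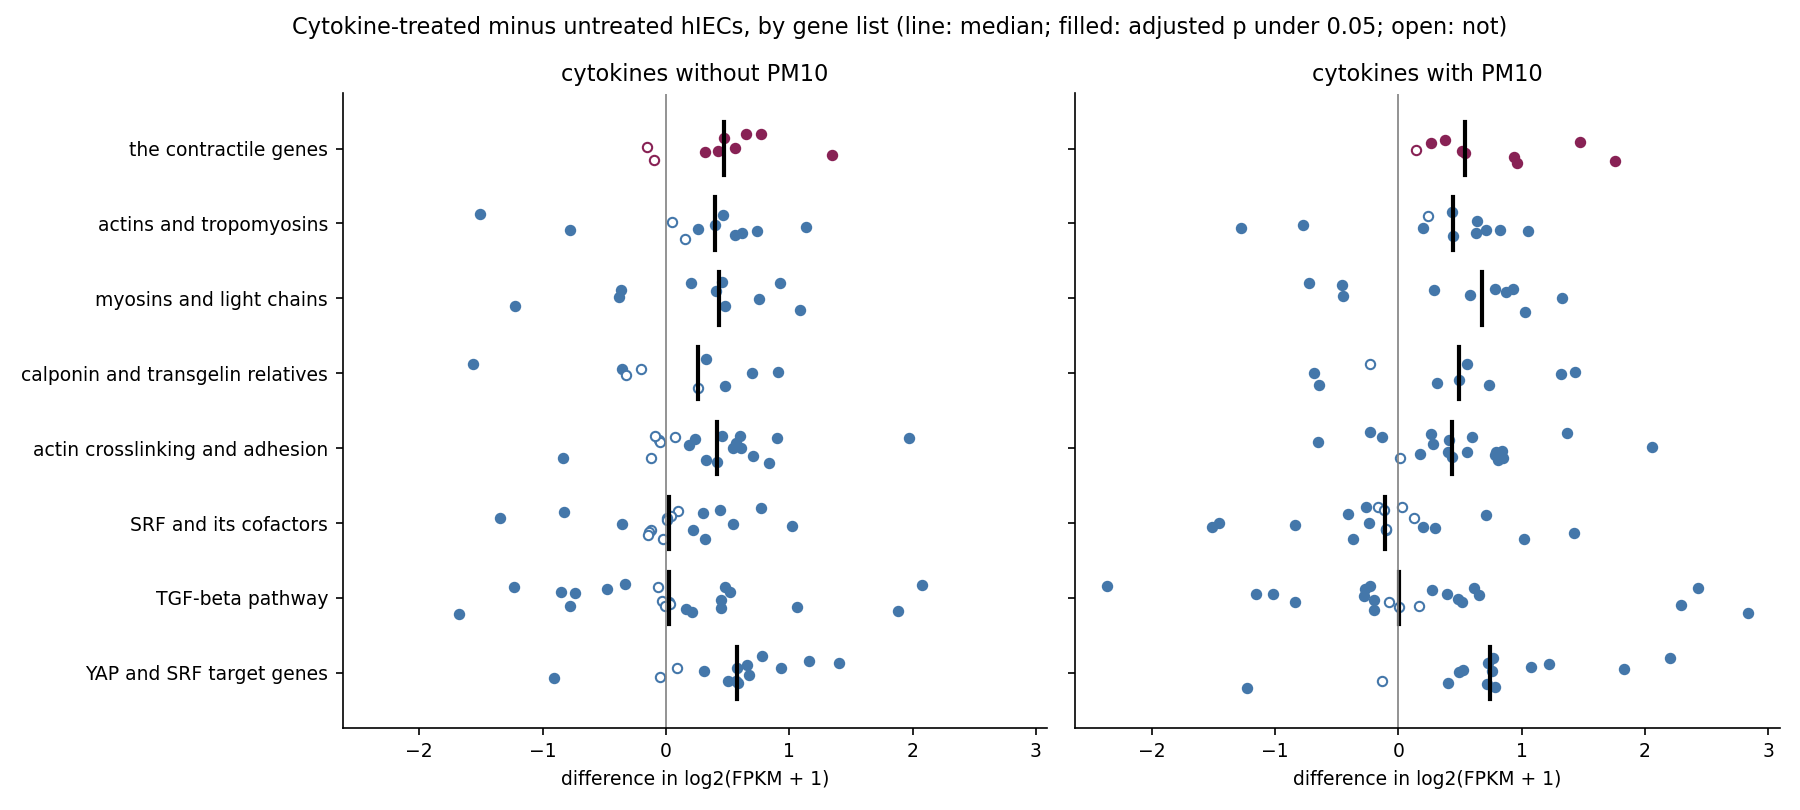
Difference in log2(FPKM + 1) between cytokine-treated and untreated hIECs (horizontal axes) for each tested gene of the contractile set and of 7 other lists, without PM10 (left) and with it (right), with a line at the median and filled points for an adjusted p under 0.05 by limma. The contractile set has a median of 0.47 and 0.54, and SRF and its cofactors lie around 0.

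The contractile genes varied together to unequal degrees. Over the 8 libraries, which share their group structure, log2(FPKM + 1) of ACTA2 had a Pearson r of 0.997 with TAGLN and 0.991 with MYLK, 0.71 with CNN1, 0.507 with LMOD1 and -0.01 with SMTN. Among the 3493 tested genes with a range of at least 1 on this scale, the 5 most like ACTA2 were FBN1, ITGA4, MELK, COL4A1 and F2RL2 (r = 0.997 to 0.998, 8 libraries). FBN1, which encodes the matrix protein fibrillin-1, was at 55.0 and 47.9 FPKM in normal hIECs, 37.3 and 37.4 FPKM with PM10, 97.9 and 97.2 FPKM in inflamed hIECs and 96.5 and 96.6 FPKM with both treatments. The 5 most like the mean of the standardised contractile genes were MGLL, WWC1, SLC16A3, TAGLN2 and IL7R (r = 0.992 to 0.996).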

How the data were processed

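RNA-seq of 8 libraries (4 groups of 2) was used. Per the study's methods, RNA with an integrity number above 7.5 was read as 2 × 100 bases, and per the labels the libraries were poly-A selected and did not keep strand. The authors trimmed reads with Cutadapt 3.7 and Sickle 1.33 (Phred 20, reads of at least 50 bases kept), mapped them with HISAT2 2.2.1 on GRCh38 and quantified genes with StringTie 2.2.0, and the values the authors deposited are FPKM, 1 per gene and library, with no scaling between libraries. The annotation release is not given in the sources used here.

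Groups came from the sample labels. log2(FPKM + 1) of the 14206 genes that reached 1 FPKM in 2 or more libraries was fitted with limma 3.58.1 (R 4.3.3) with a variance trend over all 8 libraries, with Benjamini-Hochberg adjustment over all tested genes in each of 5 comparisons and an adjusted p under 0.05 as the threshold. The pseudocount of 1 understates changes of weakly expressed genes. FPKM holds no read counts, so no count test was run, and the lowest value above 0 (0.164 to 0.228 FPKM) marks the depth. Mitochondrial genes took 15.5% to 20.4% of the FPKM sum in 7 libraries and 24.2% in normal replicate 2. An exact permutation test of 2 against 2 cannot go below p = 0.333. On simulated data for inflamed against normal hIECs over 14206 genes, the fit found 165 of 200 genes changed on purpose, and 2.9% of what it called had not been changed. The simulation used independent normal noise with the same spread in all groups. It changed 200 genes, whereas 7988 were called in the real comparison. The 2.9% therefore checks the fit under those settings and is no error rate for these data.

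The 10 contractile genes and all 16 other lists (8 pathways, 8 sets of markers) were chosen with earlier results of these data known. Named genes are the 10, their relatives, up to 2 genes per direction and pathway list with the largest called change in the cytokine comparisons or with PM10 in inflamed hIECs, the 5 genes most like ACTA2 and most like the set's mean, and defining markers. MYOCD, MRTFA, MRTFB and the genes overlapping a contractile gene are outside this rule. Some genes and 1 pathway list are not reported here. Same-numbered libraries were checked for pairing (correlation of their deviations -0.002 to 0.079) and do not pair. Positions and overlaps are from GENCODE 44, which held 99.5% of the gene identifiers, and promoters from RefSeq. Alternatives covered the pseudocount, filters, scaling, the gene set, the trend, the groups fitted, the replicate number as a block and each library left out. Tables and plots used Python 3.11.15, pandas 2.3.3 and matplotlib 3.10.9.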

Additional observations from a re-analysis of the deposited data

Results flagged for a closer look

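The effect of PM10 differed between inflamed and normal hIECs by the test of the difference itself for 3 contractile genes. The PM10 effect in inflamed hIECs minus that in normal hIECs was 0.403 for ACTA2, 0.292 for TAGLN and 0.477 for CNN1 on the log2(FPKM + 1) scale (limma, adjusted p = 0.0259, 0.0480 and 0.0238). With 2 libraries a group, single libraries could not be checked for standing apart within their group.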

How the results depend on the processing

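The limits are few libraries and no counts. With 2 libraries a group the fit borrows its spread from all groups, and losing a library outside the normal group lowers the residual degrees of freedom, while the normal libraries are the most variable. The rise of MYLK, ACTA2, TAGLN and TPM2 with cytokines passed in both comparisons under every alternative run, and that of MYL9 and CNN1 did with PM10. Leaving out each library in turn gave 5 to 8 of 9 contractile genes called for cytokines without PM10, 7 to 8 with PM10, 0 to 6 for PM10 in normal hIECs, 0 to 5 for PM10 in inflamed hIECs and 0 to 5 for the interaction.

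For PM10 in normal hIECs the count of 5 became 3 without the variance trend and 0 with only the compared groups fitted. For PM10 in inflamed hIECs the count of 2 became 1 without the filter, 1 without the trend and 4 with only the compared groups. For the interaction the count of 3 became 1 with quantile normalization and 1 without the trend. With the replicate block the counts were 3, 7, 8, 1 and 2, against 5, 7, 8, 2 and 3 without it, for PM10 in normal hIECs, cytokines without and with PM10, PM10 in inflamed hIECs and the interaction; the numbers do not pair the libraries. Causes were not tested.

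Values that were not called changed sign in 11 cases. These were TAGLN with PM10 in inflamed hIECs (0.045 with quantile normalization, 0.007 rescaled to nuclear genes), TPM2 (-0.038) and LMOD1 (0.024) in the interaction with quantile normalization, and SMTN with PM10 in normal hIECs rescaled to nuclear genes (0.003). Libraries left out moved the interaction of DES between -0.123 and 0.221 and of LMOD1 between -0.116 and 0.018, and SMTN with PM10 in normal hIECs between -0.166 and 0.101.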
